A study of Mus musculus with 11 samples.

Results

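The collagen genes of the mouse were followed in RNA-seq libraries of mammary epithelial cells. A gene was taken as a member when its symbol, mapped from the Entrez identifier, consisted of Col, a number, the letter a and a number, and 44 of the 27179 genes in the files met this rule. No measured value entered the rule. Of the 44 genes, 41 had over 0.5 CPM (read counts scaled to library size) in at least 3 of the 11 libraries and were tested, and 43 exceeded 0.5 CPM in at least 1 library.

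MaSC/basal cells (CD24+CD29hi, the mammary stem cell-enriched basal population), LP cells (CD24+CD29loCD61+, luminal progenitor-enriched) and ML cells (CD24+CD29loCD61-, mature luminal-enriched) were sorted from mammary glands of wild type FVB/N virgin females, labelled as 8 weeks old, with 3 libraries for each population. The mammosphere library came from MaSC/basal cells of the same strain, sex and age that were kept for 1 week in non-adherent mammosphere culture, and the Comma Dβ library from a cultured mammary line of Balb/c origin, established from glands at mid-pregnancy. Both cultured types have 1 library, so no test involves them. The number of mice pooled for a library is not given in the sources used here, and whether the libraries of a population are separate animals or litters is not stated beyond their being independent samples, so the p-values measure the spread between these libraries. The submitted name of MaSC/basal replicate 1 contains p53 although its label reads wild type. Without it 23 collagen genes were called higher in MaSC/basal than in LP cells and 26 than in ML cells, against 24 and 27 with it. *Col6a4*, which exceeded 0.5 CPM in the 3 MaSC/basal libraries alone, was not tested without it. Against ML cells *Col13a1* was then not called (adjusted p = 0.0534), while *Col11a2* was (adjusted p = 0.0420).

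Collagens are secreted or membrane proteins built of 3 chains wound into a triple helix, and the genes fall into families by the structure their proteins form. Fibrillar collagens (types I, II, III, V, XI, XXIV and XXVII) form the banded fibrils of connective tissue. Type IV collagens form the sheet-like network of basement membranes, and type VII forms the anchoring fibrils that tie a basement membrane to the stroma below it. FACIT collagens sit on the surface of fibrils, type VI forms beaded filaments, types VIII and X form hexagonal networks, the multiplexins XV and XVIII carry glycosaminoglycan side chains at basement membranes, and types XIII, XVII, XXIII and XXV span the cell membrane. In the mammary gland the basal layer lies against the basement membrane, whereas luminal cells face the lumen and touch the basement membrane less.

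Between 19958838 and 75795034 reads were counted per library, so that 3 reads correspond to 0.0399 to 0.160 CPM. The markers followed the labels of the sorted cells. *Krt5* was at 2853 to 3443 CPM in MaSC/basal libraries. In LP and ML libraries it was at 6.38 to 141 CPM, the highest being ML replicate 3. The 4 LP markers (*Kit*, *Elf5*, *Aldh1a3*, *Cd14*) summed to 2404, 2183 and 1999 CPM in LP libraries. In ML replicates 1 to 3 they summed to 603, 1239 and 442 CPM. The 4 ML markers (*Esr1*, *Pgr*, *Prlr*, *Foxa1*) summed to 5229, 3540 and 5944 CPM in ML libraries. In LP replicates 1 to 3 they summed to 641, 1049 and 1561 CPM. The part of RNA from the other luminal population in the collagen levels was not tested. In Comma Dβ cells the luminal keratins *Krt8* and *Krt18* were at 16.3 and 45.2 CPM. All 8 fibroblast markers examined were detected in each of the 11 libraries, with a summed level of 230 to 288 CPM in MaSC/basal, 171 to 408 CPM in LP and 308 to 475 CPM in ML libraries. All endothelial and pericyte markers examined were detected in each library as well. The 5 endothelial markers summed to 43.2 to 89.3 CPM in MaSC/basal, 10.5 to 25.7 CPM in LP and 7.27 to 37.4 CPM in ML libraries, and the 5 pericyte markers to 33.4 to 49.0, 3.95 to 14.1 and 5.93 to 12.4 CPM. The 5 adipocyte markers summed to 30.3 to 68.9 CPM in MaSC/basal and 3.22 to 36.2 CPM in LP and ML libraries, most of it *Fabp4* (25.6 to 67.1 CPM in MaSC/basal libraries), which endothelial cells also express, with *Adipoq* at 0.577 CPM or less. The 5 leukocyte markers summed to 16.8 CPM or less, the highest being the mammosphere library with *Lyz2* at 11.1 CPM, and *Ptprc* did not exceed 1.66 CPM. The part of these cells in the collagen levels was not tested.

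Collagen transcripts as a whole were most abundant in MaSC/basal cells. They took 1.78, 1.79 and 1.83% of the counted reads in the 3 MaSC/basal libraries, 0.145, 0.288 and 0.199% in LP, 0.218, 0.156 and 0.186% in ML, 0.851% in the mammosphere and 1.11% in the Comma Dβ library. To compare genes of different length, levels were divided by the deposited gene length, giving CPM per kb. The 44 genes summed to 2881, 3039 and 3139 CPM per kb in MaSC/basal, 320, 586 and 388 in LP and 368, 268 and 298 in ML libraries, and the MaSC/basal libraries did not overlap with the others. As in any bulk RNA preparation, more cells that transcribe a gene and more RNA per cell cannot be told apart.

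**Figure D1:**
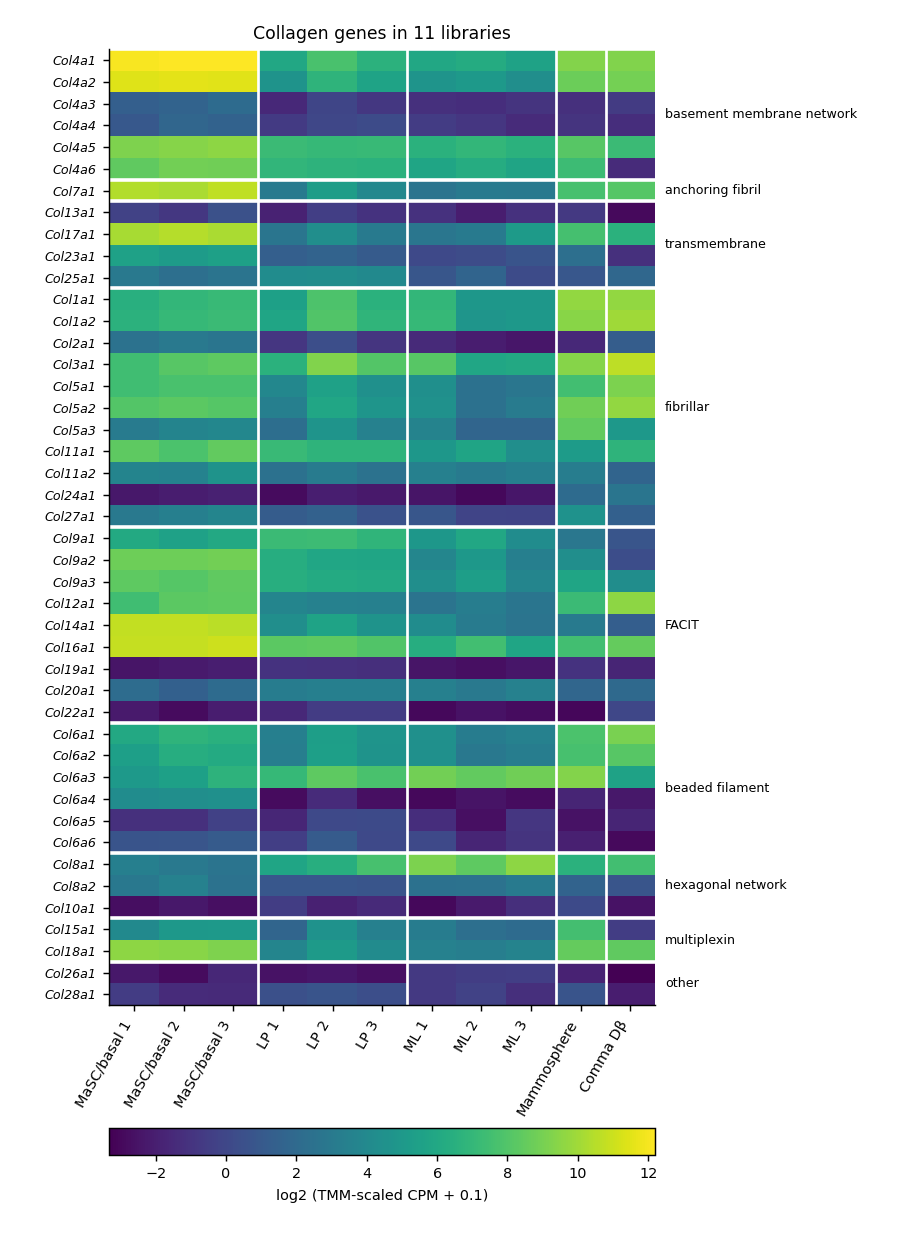
Level of each of the 44 collagen genes (rows, grouped by structural class) in the 11 libraries (columns), as log2 of TMM-scaled CPM plus 0.1, where TMM is the scaling between libraries. *Col4a1* reaches 4700 CPM in MaSC/basal replicate 3, *Col8a1* is brightest in the ML columns, and *Col1a1*, *Col1a2* and *Col3a1* in the 2 cultured columns.

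The make-up of the collagen transcripts differed between the sample types. In MaSC/basal libraries the basement membrane network genes made up 42.9% ± 0.63 (SD, n = 3) of the summed collagen level per kb, the FACIT genes 31.2% ± 1.3, the transmembrane genes 7.91% ± 0.76 and the fibrillar genes 7.03% ± 0.77. In LP libraries the FACIT genes held 37.5% ± 12 and the fibrillar genes 30.4% ± 11. In ML libraries the hexagonal network genes held 34.4% ± 13, the fibrillar genes 18.3% ± 12 and the beaded filament genes 14.8% ± 0.99. Fibrillar genes held 47.3% in the mammosphere and 55.5% in the Comma Dβ library. The highest single level was that of *Col4a1* in MaSC/basal cells (680 CPM per kb), *Col3a1* in LP (58.3) and Comma Dβ cells (292), *Col8a1* in ML cells (106) and *Col1a1* in mammospheres (177). In LP cells the second gene, *Col16a1* at 56.9 CPM per kb, did not differ from *Col3a1* beyond the spread of *Col3a1* (SD of 46.7 CPM per kb).

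**Figure D2:**
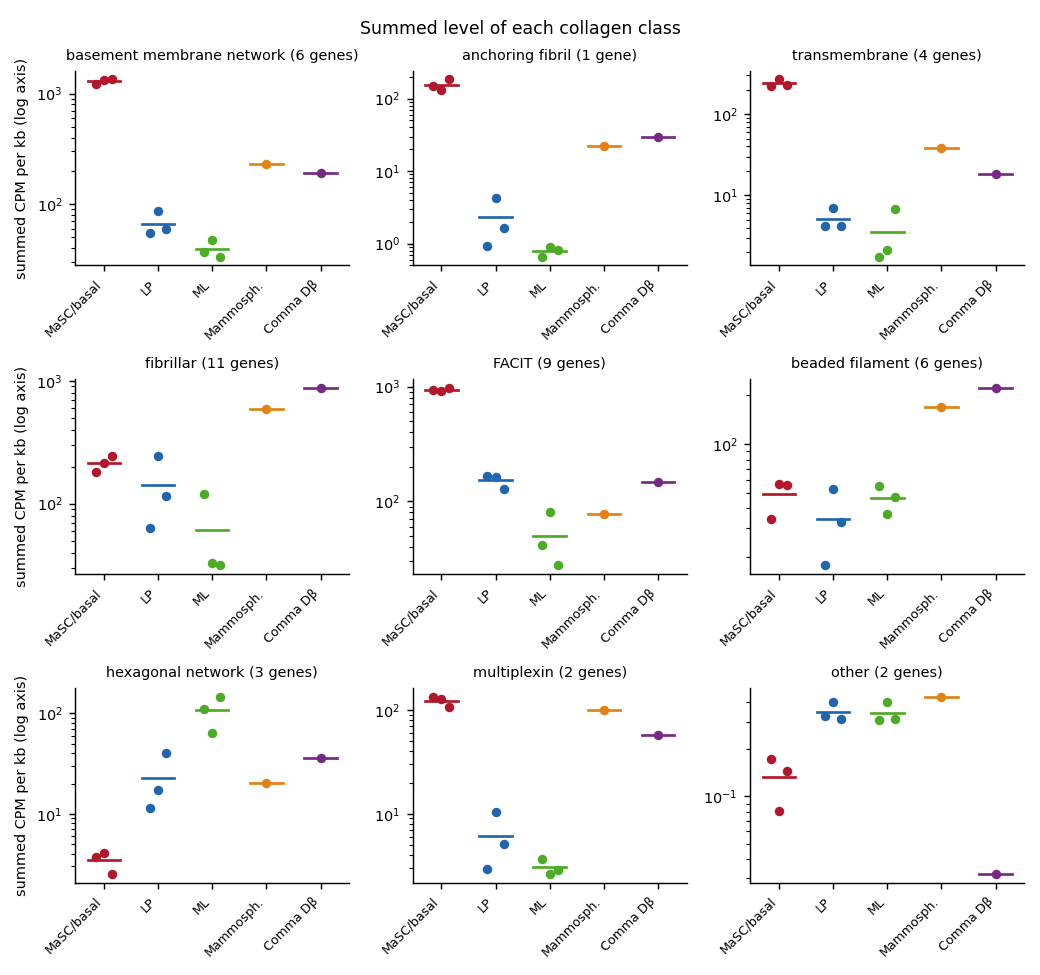
Summed level of each structural class in CPM per kb (log axis, with a range of its own in each panel) by sample type. Points are libraries and lines are means, with 3 libraries per sorted population and 1 per cultured type. MaSC/basal libraries lie above LP and ML libraries for basement membrane network, anchoring fibril, transmembrane, FACIT and multiplexin genes, and the hexagonal network panel has the reverse order.

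The sorted populations were compared gene by gene with edgeR's quasi-likelihood test over 15422 genes, and a gene was called at an adjusted p (Benjamini-Hochberg FDR) under 0.05. Of the 41 collagen genes tested, 24 were called higher and 7 lower in MaSC/basal than in LP cells, where 29.4% and 28.0% of all genes were called. Against ML cells 27 were called higher and 4 lower, with 28.9% and 29.7% of all genes called. The median log2 fold change of the collagen genes was 1.78 against LP and 2.65 against ML cells, where the median of all genes was -0.0080 and -0.0059. Under a stricter rule, an FDR under 0.001 and a log2 fold change over 2, 17 collagen genes were higher and 1 lower than in LP cells (9.64% and 7.15% of all genes), and 22 were higher and 2 lower than in ML cells (10.2% and 8.09%). Both comparisons share the MaSC/basal libraries. The higher share was thus above the background and the lower share below it in each comparison.

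**Figure D3:**
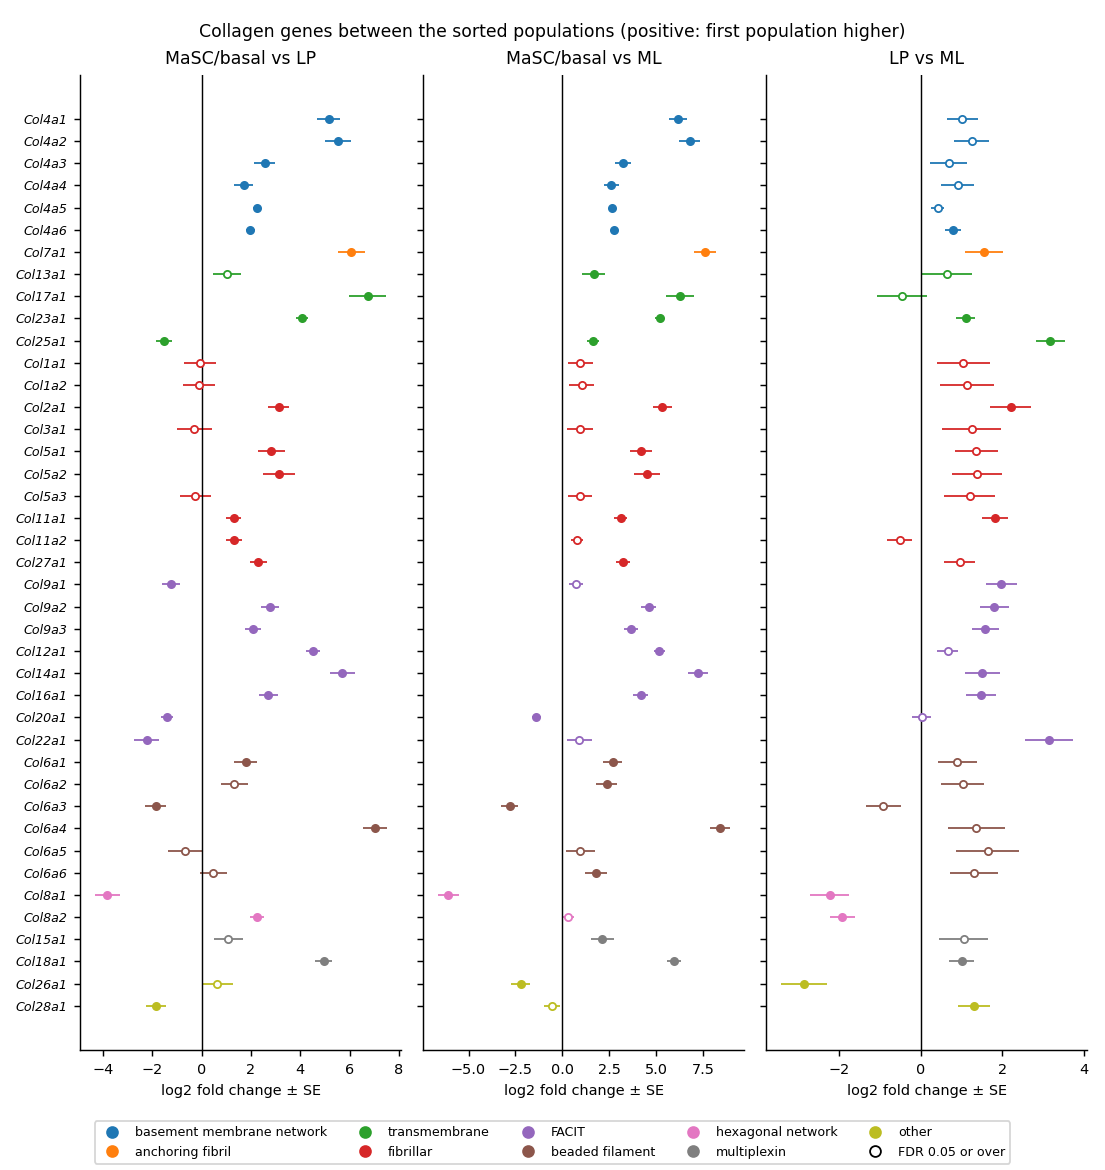
Log2 fold change ± SE (horizontal axis) of the 41 tested collagen genes in the 3 comparisons of sorted populations, coloured by class. Filled points have an FDR under 0.05. All 6 type IV genes are filled to the right of 0 in both comparisons with MaSC/basal cells, *Col8a1* and *Col6a3* lie to the left, and *Col1a1*, *Col1a2*, *Col3a1* and *Col5a3* are open in all 3 panels.

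Basement membrane network genes were higher in MaSC/basal cells without exception. The 6 type IV genes were all called against LP and against ML cells. *Col4a1* and *Col4a2* encode the chains of the ubiquitous type IV network, *Col4a5* and *Col4a6* chains of a network found under selected epithelia and around smooth muscle, and *Col4a3* and *Col4a4* chains known from the kidney glomerulus. Each pair is arranged head to head in the genome. *Col4a1* (chr8:11198423-11312889, minus strand, GRCm38) and *Col4a2* (chr8:11312805-11449287, plus strand) overlap by 85 bases and their RefSeq start sites are 21 bases apart, and *Col4a4* and *Col4a3* on chromosome 1 overlap by 114 bases. *Col4a6* (chrX:141165403-141474095, minus strand) and *Col4a5* (chrX:141475370-141689236, plus strand) are separated by 1274 bases. Reads inside an overlap cannot be assigned to 1 gene without strand, and the strand setting of the counting is not given in the sources used here.

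The start regions of *Col4a1* and *Col4a2* overlap, while those of the X-linked pair lie apart. Whether this arrangement bears on expression was not tested. Short stretches before the start sites are shown, in windows that were set by hand and that each hold a marked motif. RefSeq promoter records (250 bases before to 50 after a start site, GRCm38.p6) were matched for 35 of the 44 members. The start sites given are those of the records used. The *Col4a5* stretch and part of the *Col4a6* stretch lie inside their own annotated genes. Capitals mark CCAAT in the first sequence (chr8:11312759-11312788, plus strand, 46 to 17 bases before the *Col4a2* start and inside the annotated *Col4a1* gene) and GGGCGG or its reverse complement in the others (chrX:141475377-141475406, plus strand, 42 to 13 bases before the *Col4a5* start, and chrX:141474080-141474109, minus strand, 33 to 4 bases before the *Col4a6* start).
Col4a2: gcccgaggagctccCCAATttgttggcgct
Col4a5: ccagcggggaggGGGCGGtgcagggaagag
Col4a6: cagcaggcagccCCGCCCcgtccccctcca
On both strands CCAAT was found in 37.4% of the 32851 promoter records of all genes and in 13 of the 35 members (37.1%), and GGGCGG in 35.7% of all records and in 22 of the 35 members (62.9%). TATAAA was found in 13.6% of all records and in 5 of the 35 members. The share of all genes counts single records, whereas a member counted once if any of its records held the motif. A gene with several records had more chances of a match, so these shares are not like measures. A match describes the letters in this window only.

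*Col4a1* was at 4269, 4531 and 4700 CPM in MaSC/basal, 62.3, 216 and 101 CPM in LP, 63.0, 76.0 and 48.5 CPM in ML, 642 CPM in the mammosphere and 609 CPM in the Comma Dβ library. The MaSC/basal libraries stood far above the LP and ML libraries, with log2 fold changes of 5.15 ± 0.45 (SE, adjusted p = 7.43e-06) and 6.17 ± 0.48 (adjusted p = 2.79e-06), and LP replicate 2 was the highest luminal library. *Col4a2* had levels of 2785, 2987 and 2884 CPM in MaSC/basal, 25.0, 110 and 52.2 CPM in LP, 25.8, 32.5 and 20.6 CPM in ML, 426 CPM in the mammosphere and 490 CPM in the Comma Dβ library. Its order of libraries was the same among LP and among ML replicates as that of *Col4a1*, and its log2 fold changes were 5.53 ± 0.51 and 6.77 ± 0.54. The ratio of *Col4a1* to *Col4a2* per kb was 1.47 to 1.58 in MaSC/basal libraries, 1.89 to 2.42 in LP and ML libraries, 1.46 in the mammosphere and 1.21 in the Comma Dβ library. The endothelial and pericyte marker sums given above were also highest in MaSC/basal libraries, with *Pecam1* at 18.1, 19.2 and 39.4 CPM there and at 2.94 to 17.4 CPM in LP and ML libraries, and their part in the type IV levels was not tested.

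*Col4a5* and *Col4a6* were transcribed in all sorted populations. *Col4a5* was at 583, 672 and 748 CPM in MaSC/basal, 150, 133 and 139 CPM in LP, 97.0, 124 and 97.4 CPM in ML, 281 CPM in the mammosphere and 150 CPM in the Comma Dβ library. *Col4a6* was at 337, 467 and 455 CPM in MaSC/basal, 119, 104 and 97.7 CPM in LP, 56.0, 76.8 and 52.7 CPM in ML and 160 CPM in the mammosphere library. In these 10 libraries the pair ran in parallel, with a ratio of *Col4a5* to *Col4a6* per kb of 1.29 to 1.89. In the Comma Dβ library *Col4a6* had 8 reads, a level of 0.272 CPM, and the ratio was 566. The log2 fold changes against LP and ML cells were 2.24 ± 0.16 and 2.65 ± 0.16 for *Col4a5* and 1.97 ± 0.19 and 2.76 ± 0.20 for *Col4a6*. Between LP and ML cells *Col4a6* was called, at a log2 fold change of 0.79 ± 0.19 (adjusted p = 0.0109). *Col4a2* lay near the threshold (1.24 ± 0.43, adjusted p = 0.0503) and was called with the replicate block, DESeq2 size factors, no filter, the DESeq2 test and without LP replicate 1 (adjusted p of 0.0082 to 0.0474). *Col4a1* was called by the DESeq2 test and without LP replicate 1 (adjusted p = 0.0191 and 0.0175), and *Col4a5* by voom, the DESeq2 test and without ML replicate 2 (adjusted p of 0.0252 to 0.0436).

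*Col4a3* and *Col4a4* were low throughout. *Col4a3* was at 2.51, 3.01 and 4.26 CPM in MaSC/basal, 0.247, 0.861 and 0.480 CPM in LP, 0.339, 0.306 and 0.410 CPM in ML, 0.337 CPM in the mammosphere and 0.544 CPM in the Comma Dβ library. *Col4a4* was at 1.80, 3.43 and 2.84 CPM in MaSC/basal, 0.529, 0.898 and 1.07 CPM in LP, 0.565, 0.452 and 0.273 CPM in ML, and 0.404 and 0.306 CPM in the cultured libraries. The MaSC/basal libraries were above all others for both genes, with log2 fold changes of 1.70 to 3.23, although their level was a small part of that of *Col4a1*.

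*Col7a1*, whose product forms anchoring fibrils, and *Col17a1*, the transmembrane collagen of hemidesmosomes that anchors basal keratinocytes, were higher in MaSC/basal cells as well. *Col7a1* (chr9:108953586-108984875) was at 1358, 1216 and 1690 CPM in MaSC/basal, 8.46, 39.7 and 15.3 CPM in LP, 6.08, 8.18 and 7.61 CPM in ML, 203 CPM in the mammosphere and 273 CPM in the Comma Dβ library. The groups did not overlap, and the log2 fold change was 6.06 ± 0.55 against LP and 7.60 ± 0.59 against ML cells. Between LP and ML cells the log2 fold change was 1.54 ± 0.46 (adjusted p = 0.029), and without LP replicate 2 it was 0.72 (adjusted p = 0.0924).

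Transmembrane collagens were not uniform. *Col17a1* (chr19:47646341-47692042) was at 1137, 1409 and 1201 CPM in MaSC/basal, 6.49, 20.1 and 8.17 CPM in LP, 6.76, 7.97 and 34.3 CPM in ML, 199 CPM in the mammosphere and 95.8 CPM in the Comma Dβ library. It was higher in MaSC/basal cells by log2 fold changes of 6.74 ± 0.76 and 6.27 ± 0.74. ML replicate 3, its highest luminal library, was also the luminal library with the highest *Krt5* and *Krt14* (141 and 110 CPM), and the part of basal RNA in that value was not tested. Between LP and ML cells *Col17a1* was not called (log2 fold change of -0.47 ± 0.61), and without ML replicate 3 the value was 0.66.

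*Col23a1*, a transmembrane collagen that binds integrins, was at 47.8, 35.8 and 45.8 CPM in MaSC/basal, 2.50, 2.99 and 2.08 CPM in LP, 0.961, 1.13 and 1.55 CPM in ML, 5.06 CPM in the mammosphere and 0.340 CPM in the Comma Dβ library. The 3 sorted populations formed separate steps, and all 3 comparisons were called (log2 fold changes of 4.07 ± 0.23, 5.18 ± 0.25 and, for LP over ML, 1.10 ± 0.23). *Col25a1*, a transmembrane collagen first described in neurons, ran the other way between basal and luminal progenitor cells. It was at 7.80, 4.88 and 6.23 CPM in MaSC/basal, 18.9, 19.8 and 16.2 CPM in LP, 1.70, 3.11 and 1.09 CPM in ML, and 1.75 and 3.60 CPM in the cultured libraries. LP cells were highest, MaSC/basal cells between and ML cells lowest, with log2 fold changes of -1.54 ± 0.33 (MaSC/basal against LP, adjusted p = 0.00258), 1.63 ± 0.34 (MaSC/basal against ML, adjusted p = 0.00203) and 3.17 ± 0.35 (LP against ML, adjusted p = 0.0008). *Col13a1*, the collagen of neuromuscular junctions, did not exceed 1.34 CPM in any library. It was called only against ML cells (log2 fold change of 1.66 ± 0.59, adjusted p = 0.0331), and after blocking on the library batch (replicate block) the adjusted p was 0.061. Leaving out MaSC/basal replicate 1, MaSC/basal replicate 3 or ML replicate 2 also ended this call (adjusted p of 0.0534 to 0.13).

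The abundant FACIT collagens were higher in MaSC/basal cells and, in part, stepped down from LP to ML cells. *Col16a1* (chr4:130047817-130099277), a minor collagen found near basement membranes, was at 1852, 1819 and 2094 CPM in MaSC/basal, 307, 331 and 251 CPM in LP, 82.7, 182 and 54.6 CPM in ML, 180 CPM in the mammosphere and 372 CPM in the Comma Dβ library. No population overlapped with another, and the log2 fold changes were 2.70 ± 0.38, 4.17 ± 0.41 and, for LP over ML, 1.47 ± 0.37 (adjusted p = 0.0142). *Col14a1* (chr15:55307644-55520803), which binds fibrils of type I collagen, was at 1777, 1720 and 1514 CPM in MaSC/basal, 20.6, 50.3 and 24.6 CPM in LP, 18.9, 8.56 and 6.29 CPM in ML, 8.09 CPM in the mammosphere and 2.41 CPM in the Comma Dβ library. It was the FACIT gene with the largest fold change (log2 of 5.71 ± 0.50 and 7.21 ± 0.54), and the cultured libraries were as low as ML cells or lower. *Col12a1*, which also decorates type I fibrils, was at 173 to 320 CPM in MaSC/basal, 10.5 to 13.5 CPM in LP and 6.13 to 9.53 CPM in ML libraries and higher by log2 fold changes of 4.51 ± 0.29 and 5.17 ± 0.30. Between LP and ML cells it was not called (0.66 ± 0.26, adjusted p = 0.078), whereas after blocking on the library batch (replicate block) the adjusted p was 0.0353.

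The 3 chains of type IX collagen, the FACIT of cartilage, were not alike in their pattern. *Col9a2* was at 443, 438 and 468 CPM in MaSC/basal, 80.2, 57.9 and 56.7 CPM in LP, 13.7, 31.5 and 10.2 CPM in ML, 20.1 CPM in the mammosphere and 1.16 CPM in the Comma Dβ library. *Col9a3* was at 325, 279 and 339 CPM in MaSC/basal, 86.3, 71.7 and 64.9 CPM in LP, 20.1, 40.7 and 13.2 CPM in ML, 54.9 CPM in the mammosphere and 19.8 CPM in the Comma Dβ library. Both stepped down from MaSC/basal to LP to ML cells. *Col9a1* was at 70.2, 48.0 and 65.0 CPM in MaSC/basal, 155, 163 and 116 CPM in LP, 29.5, 62.6 and 18.4 CPM in ML, 7.06 CPM in the mammosphere and 1.63 CPM in the Comma Dβ library. LP cells were highest, and *Col9a1* was lower in MaSC/basal than in LP cells (log2 fold change of -1.25 ± 0.37, adjusted p = 0.0157), a call lost without MaSC/basal replicate 2 (adjusted p = 0.0635). Against ML cells it was not called (0.72 ± 0.37), and without ML replicate 2 it was (1.34, adjusted p = 0.00158). Per kb *Col9a1* was at 0.0773 to 0.112 of the level of *Col9a2* in MaSC/basal libraries and at 1.28 to 1.99 of it in LP and ML libraries. All 3 chains were higher in LP than in ML cells, by log2 fold changes of 1.97 ± 0.38, 1.80 ± 0.36 and 1.58 ± 0.34.

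The remaining FACIT genes were low. *Col20a1* was at 2.63 to 4.32 CPM in MaSC/basal, 9.17 to 10.4 CPM in LP and 7.68 to 11.02 CPM in ML libraries, and was called lower in MaSC/basal cells in both comparisons (log2 fold changes of -1.42 ± 0.24 and -1.39 ± 0.24). *Col22a1*, known from tissue junctions such as that of muscle and tendon, was at 0.119, 0.0399 and 0.132 CPM in MaSC/basal, 0.247, 0.580 and 0.587 CPM in LP, 0.0283, 0.0664 and 0.0455 CPM in ML, 0.0225 CPM in the mammosphere and 0.883 CPM in the Comma Dβ library. LP libraries held 7 to 31 reads of it and ML libraries 1 to 5, and the difference was called (log2 fold change of 3.14 ± 0.59, adjusted p = 0.00405). It was also called lower in MaSC/basal than in LP cells (-2.24 ± 0.51, adjusted p = 0.00381). It passed the filter through LP replicates 2 and 3 and the Comma Dβ library alone. A tested *Col22a1* therefore had to have its highest sorted libraries among the LP libraries, and it was not tested where 1 of the 3 was left out. *Col19a1* did not pass the filter, its highest library being LP replicate 1 at 0.388 CPM.

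Fibrillar collagens held genes that were called between basal and luminal cells and genes that were not, the latter with a wide spread between libraries. *Col1a1* and *Col1a2*, the chains of type I collagen, and *Col3a1*, that of type III, are the main products of fibroblasts. *Col1a1* was at 87.4, 123 and 144 CPM in MaSC/basal, 45.1, 235 and 95.9 CPM in LP, 124, 29.2 and 29.1 CPM in ML, 835 CPM in the mammosphere and 808 CPM in the Comma Dβ library. *Col1a2* was at 101, 138 and 156 CPM in MaSC/basal, 54.7, 256 and 112 CPM in LP, 135, 27.5 and 31.1 CPM in ML, 683 CPM in the mammosphere and 1017 CPM in the Comma Dβ library. The sorted populations overlapped, with LP replicate 2 and ML replicate 1 the high libraries of their groups. *Col3a1* was at 176, 286 and 328 CPM in MaSC/basal, 97.9, 608 and 267 CPM in LP, 288, 57.0 and 66.2 CPM in ML, 678 CPM in the mammosphere and 1623 CPM in the Comma Dβ library. With all 11 libraries none of the 3 genes was called in any comparison, nor was *Col5a3*, a minor chain of type V collagen, and the adjusted p-values of the 4 genes lay between 0.176 and 0.920.

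Of the 8 fibroblast markers examined, 8 had their highest LP level in LP replicate 2 and 7 their highest ML level in ML replicate 1. The exception was the most abundant marker, *Dcn*, at 352, 285 and 450 CPM in ML libraries and at 162 to 204 CPM in MaSC/basal libraries. *Lum* was at 9.43, 12.3 and 20.5 CPM in MaSC/basal, 4.79, 40.0 and 21.9 CPM in LP and 15.2, 3.79 and 4.37 CPM in ML libraries, so that LP replicate 2 and ML replicate 1 were again the highest of their groups. *Dpt* was at 48.0 CPM in LP replicate 2 and 24.6 CPM in ML replicate 1, against 23.3 and 30.6 CPM in the other LP and 4.07 and 5.97 CPM in the other ML libraries. *Clec3b* was likewise highest in LP replicate 2 (23.9 CPM) and ML replicate 1 (12.2 CPM) of their groups. The margin of LP replicate 2 over LP replicate 1 was small for *Pdgfra* (30.6 against 29.9 CPM) and *Pi16* (43.8 against 41.4 CPM). LP replicate 2 was also the highest LP library for 5 of 5 endothelial, 3 of 5 pericyte and 7 of 8 MaSC/basal markers. The part of fibroblast or other RNA in the collagen levels was not tested. Across the 9 sorted libraries the ratio of *Col1a1* to *Col1a2* per kb stayed between 0.900 and 1.16 and that of *Col3a1* to *Col1a2* between 1.61 and 2.20. Without ML replicate 1, *Col1a1*, *Col1a2*, *Col3a1* and *Col5a3* were called higher in MaSC/basal than in ML cells (log2 fold changes of 2.01, 2.16, 2.09 and 1.89, adjusted p of 0.00922 to 0.0239) and higher in LP than in ML cells (2.11, 2.28, 2.41 and 2.15, adjusted p of 0.022 to 0.035). Without LP replicate 2 the log2 fold changes of the 4 genes against LP cells changed from between -0.30 and -0.09 to between 0.51 and 0.72, still without a call.

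**Figure D4:**
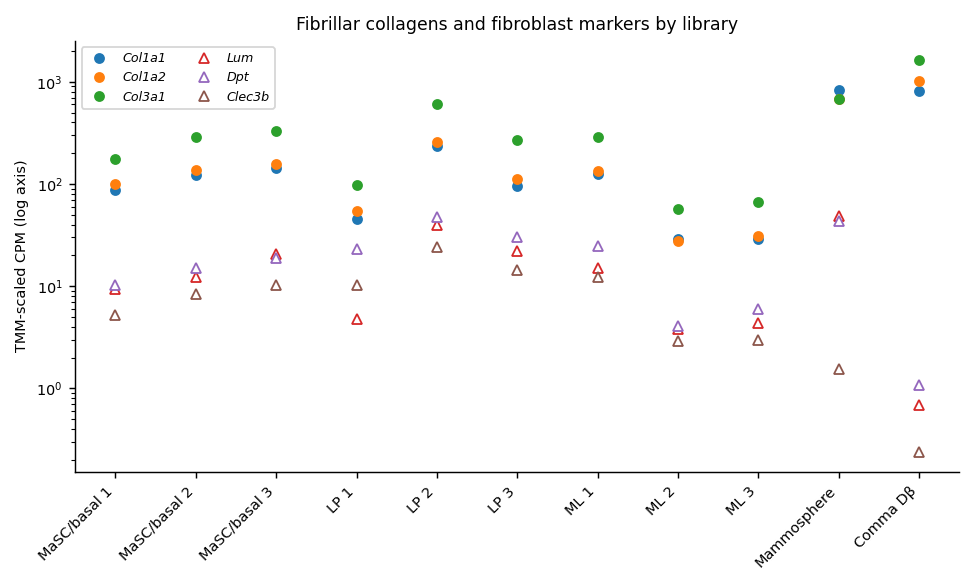
Levels of *Col1a1*, *Col1a2* and *Col3a1* (filled circles) and of the fibroblast markers *Lum*, *Dpt* and *Clec3b* (open triangles) in each library, in TMM-scaled CPM on a log axis. In the LP and ML columns the collagens and the 3 markers drawn are high in LP replicate 2 and ML replicate 1. In Comma Dβ cells the collagens are at 808 to 1623 CPM and these markers at 0.238 to 1.09 CPM. In the mammosphere library they are at 678 to 835 and 1.53 to 48.4 CPM. Of all 8 fibroblast markers examined, 1 lay above and 7 below the MaSC/basal range in Comma Dβ cells. *Pdgfra* and *Dcn*, which are not drawn, were at 124 and 91.3 CPM there. *Dcn* was also highest in ML replicate 3 of the ML libraries (450 CPM).

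The other fibrillar genes that passed the filter were higher in MaSC/basal cells. *Col5a1* and *Col5a2*, chains of the type V collagen that starts fibrils, were higher than in LP cells by log2 fold changes of 2.83 ± 0.55 and 3.13 ± 0.64 and than in ML cells by 4.19 ± 0.59 and 4.50 ± 0.69. Their MaSC/basal levels were 174 to 213 and 260 to 311 CPM, and LP replicate 2 was again the highest luminal library for both (47.5 and 58.4 CPM). *Col11a1*, which can replace a type V chain, was at 324, 219 and 351 CPM in MaSC/basal, 146, 108 and 109 CPM in LP, 29.7, 52.9 and 20.4 CPM in ML, 37.1 CPM in the mammosphere and 111 CPM in the Comma Dβ library. Its populations did not overlap, and the log2 fold changes were 1.30 ± 0.32, 3.11 ± 0.34 and, for LP over ML, 1.82 ± 0.33. *Col2a1*, the main cartilage collagen, was at 5.66, 7.61 and 6.37 CPM in MaSC/basal, 0.458, 1.23 and 0.427 CPM in LP, 0.254, 0.133 and 0.0911 CPM in ML, 0.247 CPM in the mammosphere and 2.24 CPM in the Comma Dβ library. Although low, it formed the same 3 steps (3.12 ± 0.43, 5.32 ± 0.51 and 2.20 ± 0.51). *Col27a1*, at 7.75 to 13.1 CPM in MaSC/basal and 0.774 to 2.68 CPM in luminal libraries, was higher by 2.30 ± 0.36 and 3.25 ± 0.38, and *Col11a2*, at 11.9 to 25.3 CPM in MaSC/basal and 5.46 to 10.7 CPM in luminal libraries, was called against LP cells alone (1.31 ± 0.32; 0.78 ± 0.31 against ML, adjusted p = 0.054, which was 0.0294 to 0.045 without MaSC/basal replicate 1, MaSC/basal replicate 2 or LP replicate 2). *Col24a1* did not pass the filter, with 2 to 9 reads in each MaSC/basal and ML library and 1 to 8 in LP, and reached 4.16 CPM in the mammosphere and 6.35 CPM in the Comma Dβ library.

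The chains of type VI collagen, which forms beaded filaments around cells, did not move together. *Col6a1* was at 66.3, 108 and 93.2 CPM in MaSC/basal, 10.1, 41.4 and 26.1 CPM in LP, 21.9, 8.99 and 11.02 CPM in ML, 224 CPM in the mammosphere and 551 CPM in the Comma Dβ library. *Col6a2* was at 44.0, 82.6 and 72.2 CPM in MaSC/basal, 9.98, 43.6 and 25.2 CPM in LP, 22.3, 7.21 and 9.47 CPM in ML, 204 CPM in the mammosphere and 292 CPM in the Comma Dβ library. For both, as for *Col1a1*, LP replicate 2 and ML replicate 1 were the highest of their groups. *Col6a1* was called higher than in LP and ML cells (1.78 ± 0.48 and 2.68 ± 0.49 on the log2 scale), and *Col6a2* higher than in ML cells (2.35 ± 0.55), with an adjusted p of 0.0545 against LP cells. The latter was 0.0181 without LP replicate 2, 0.0315 without ML replicate 1 and 0.0426 without ML replicate 2. *Col6a3*, the long chain that completes the trimer, was at 32.2, 44.9 and 106 CPM in MaSC/basal, 135, 324 and 211 CPM in LP, 468, 352 and 448 CPM in ML, 630 CPM in the mammosphere and 48.4 CPM in the Comma Dβ library. It ran in the opposite direction, lower in MaSC/basal than in LP (-1.87 ± 0.44, adjusted p = 0.00438) and ML cells (-2.79 ± 0.45, adjusted p = 0.000427). The ratio of *Col6a3* to *Col6a1* per kb was 0.152 to 0.417 in MaSC/basal, 2.88 to 4.92 in LP, 7.84 to 14.9 in ML, 1.03 in the mammosphere and 0.0322 in the Comma Dβ library.

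*Col6a4*, *Col6a5* and *Col6a6*, later members of the type VI family, lie side by side on chromosome 9 (chr9:105689417-106096828 from *Col6a6* to *Col6a4*). *Col6a4* was at 18.8, 20.2 and 22.5 CPM in MaSC/basal, with 1111, 1012 and 1195 reads, and at 0.0353, 0.281 and 0.0534 CPM in LP, 0.0283, 0.0797 and 0.0455 CPM in ML, 0.202 CPM in the mammosphere and 0.102 CPM in the Comma Dβ library. The luminal libraries held 1 to 15 reads, and the log2 fold changes of 7.02 ± 0.49 and 8.38 ± 0.54 exceeded those of the other collagen genes tested. *Col6a4* passed the filter through the 3 MaSC/basal libraries alone, so that a tested *Col6a4* had to be highest there. Its neighbour *Col6a5* did not exceed 1.01 CPM in any library and was not called. *Col6a6* was at 1.51, 1.61 and 2.11 CPM in MaSC/basal, 0.635, 2.06 and 0.961 CPM in LP, 0.961, 0.199 and 0.410 CPM in ML, 0.157 CPM in the mammosphere and 0.0340 CPM in the Comma Dβ library. It was called only against ML cells (1.77 ± 0.59, adjusted p = 0.0244), and after blocking on the library batch (replicate block) the adjusted p was 0.0665. The call was likewise lost without MaSC/basal replicate 3, ML replicate 2 or ML replicate 3 (adjusted p of 0.0627 to 0.0724).

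Hexagonal network collagens included *Col8a1*, the collagen gene with the largest log2 fold change toward luminal cells. *Col8a1* (chr16:57624256-57754737), a chain of the short-chain type VIII collagen, was at 10.2, 7.61 and 6.12 CPM in MaSC/basal, 54.8, 85.8 and 202 CPM in LP, 554, 321 and 743 CPM in ML, 98.0 CPM in the mammosphere and 183 CPM in the Comma Dβ library. The 3 populations formed separate steps in the order ML, LP, MaSC/basal. The log2 fold changes were -3.84 ± 0.51 (MaSC/basal against LP, adjusted p = 0.000115), -6.08 ± 0.56 (MaSC/basal against ML, adjusted p = 9.13e-06) and -2.24 ± 0.47 (LP against ML, adjusted p = 0.00638). The sum of the ML markers had the same order of replicates, at 641, 1049 and 1561 CPM in LP and 5229, 3540 and 5944 CPM in ML libraries. The part of mature luminal RNA in the LP values was not tested. The partner chain *Col8a2* was at 7.39, 11.1 and 5.67 CPM in MaSC/basal, 1.76, 1.72 and 1.60 CPM in LP, 5.37, 5.65 and 8.47 CPM in ML, 3.03 CPM in the mammosphere and 1.60 CPM in the Comma Dβ library. LP cells were lowest, below MaSC/basal (2.24 ± 0.30) and ML cells (LP against ML, -1.93 ± 0.30), while MaSC/basal and ML cells were not called different (0.32 ± 0.28). Per kb *Col8a1* was at 0.580 to 1.17 of the level of *Col8a2* in MaSC/basal libraries and at 26.3 to 107 of it in LP and ML libraries. *Col10a1*, the collagen of hypertrophic cartilage, did not pass the filter and was at 0.0509, 0.0996 and 0.0565 CPM in MaSC/basal, 0.599, 0.168 and 0.267 CPM in LP, 0.0283, 0.12 and 0.319 CPM in ML, 1.01 CPM in the mammosphere and 0.0680 CPM in the Comma Dβ library.

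Of the multiplexins, *Col18a1*, the source of endostatin and a component of epithelial basement membranes, was at 768, 707 and 580 CPM in MaSC/basal, 13.3, 35.1 and 17.7 CPM in LP, 11.3, 9.94 and 12.0 CPM in ML, 376 CPM in the mammosphere and 335 CPM in the Comma Dβ library. Its log2 fold changes were 4.95 ± 0.36 and 5.95 ± 0.37, and between LP and ML cells 1.00 ± 0.31 (adjusted p = 0.0341; 0.0543 with the replicate block of library batches). Without LP replicate 2 the latter value was 0.51. *Col15a1*, found in the basement membranes of vessels and muscle, was at 16.1, 31.2 and 33.5 CPM in MaSC/basal, 3.24, 23.6 and 10.7 CPM in LP, 9.25, 4.90 and 4.19 CPM in ML, 191 CPM in the mammosphere and 0.612 CPM in the Comma Dβ library. It was called against ML cells (2.13 ± 0.60) and not against LP cells (1.09 ± 0.58, adjusted p = 0.136), where LP replicate 2 was high. Without that library the value was 1.95 (adjusted p = 0.0158).

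Both genes outside these families were low. *Col26a1* was at 0.102, 0.0399 and 0.226 CPM in MaSC/basal, 0.0705, 0.0936 and 0.0534 CPM in LP, 0.509, 0.611 and 0.638 CPM in ML and 0.180 CPM in the mammosphere library, and had no read in the Comma Dβ library, which allows up to 0.102 CPM. ML cells were higher than MaSC/basal (MaSC/basal against ML, -2.22 ± 0.49) and LP cells (LP against ML, -2.86 ± 0.57), with 14 to 46 reads per ML library. It passed the filter through the 3 ML libraries alone, so that a tested *Col26a1* had to be highest there. *Col28a1* was at 0.577, 0.279 and 0.264 CPM in MaSC/basal, 1.27, 1.53 and 1.23 CPM in LP, 0.509, 0.744 and 0.319 CPM in ML, 1.55 CPM in the mammosphere and 0.136 CPM in the Comma Dβ library. LP cells were highest among the sorted cells (-1.84 ± 0.41 for MaSC/basal against LP, 1.30 ± 0.40 for LP against ML).

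Between the luminal populations, 14 collagen genes were called higher in LP and 3 higher in ML cells, where 14.3% and 17.5% of all genes were called in these directions. The median log2 fold change of the 41 genes was 1.10 and that of all genes -0.014. The 14 genes were *Col2a1*, *Col4a6*, *Col7a1*, *Col9a1*, *Col9a2*, *Col9a3*, *Col11a1*, *Col14a1*, *Col16a1*, *Col18a1*, *Col22a1*, *Col23a1*, *Col25a1* and *Col28a1*, and the 3 were *Col8a1*, *Col8a2* and *Col26a1*. FACIT genes accounted for 6 of the 14, of 8 tested, and *Col22a1* was among the 6 although it passed the filter through LP and Comma Dβ libraries alone. ML replicate 2 had the highest LP marker sum of the ML libraries (1239 CPM). It was also the highest ML library for all of the 14 but *Col2a1*, *Col14a1*, *Col18a1* and *Col23a1*. The part of LP RNA in these ML values was not tested. The stricter rule left *Col25a1* alone in the first direction and none in the second (0.441% and 0.428% of all genes). LP replicate 2 was the highest LP library for 8 of 8 fibroblast, 5 of 5 endothelial, 3 of 5 pericyte and 7 of 8 MaSC/basal markers. The part of such RNA in these calls was not tested. Without that library 9 genes were called higher in LP cells. *Col7a1*, *Col14a1*, *Col18a1* and *Col28a1* were then not called (adjusted p of 0.0902 to 0.0972) and *Col22a1* was not tested. These 4 calls were lost without other libraries too: *Col7a1* without ML replicate 1 or 3, *Col14a1* without ML replicate 2 or 3, *Col18a1* without any 1 of the ML libraries and *Col28a1* without LP replicate 1 or 3 or ML replicate 1 or 3 (adjusted p of 0.0529 to 0.101). *Col16a1* was not called without ML replicate 1 (adjusted p = 0.0611). Without LP replicate 1, 19 genes were called higher in LP cells, and without ML replicate 1, 18. Without LP replicate 2 and ML replicate 1 together, a choice made after seeing the data, 8 were called higher in LP cells, 6 of them among the 14, and 1 higher in ML cells. The same removal left 26 genes called higher in MaSC/basal than in LP cells and 31 than in ML cells.

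In the cultured libraries, log2 CPM (prior count of 2) was compared with the mean of the 3 MaSC/basal libraries, and a gene was counted when it differed by over 2, a factor of 4, and lay outside the MaSC/basal range. In the mammosphere library 9 of 43 collagen genes were higher and 17 lower by this measure, where 10.3% of all 16816 genes were higher and 8.34% lower. In the Comma Dβ library 8 were higher and 20 lower, where 6.54% and 14.6% of all genes were. The median difference of the collagen genes was -0.98 in the mammosphere and -1.70 in the Comma Dβ library, against 0.020 and 0.0072 for all genes. The 2 comparisons share the MaSC/basal libraries, and with 1 library each they carry no test. No MaSC/basal library is in the library batch of the Comma Dβ library, so batch and cell type cannot be told apart there. The mammosphere library shares its batch with MaSC/basal replicate 1 alone among the MaSC/basal libraries.

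The genes that were higher than in MaSC/basal cells were fibrillar, beaded filament and hexagonal network genes for the most part. *Col1a1*, *Col1a2*, *Col8a1* and *Col24a1* were higher in both cultured libraries, by log2 differences of 2.85 and 2.80 for *Col1a1*, 2.40 and 2.97 for *Col1a2*, 3.64 and 4.55 for *Col8a1* and 4.53 and 5.14 for *Col24a1* in the mammosphere and Comma Dβ library. *Col24a1*, a minor fibrillar collagen, rested on 185 and 187 reads against 6, 7 and 9 in the MaSC/basal libraries. It exceeded 0.5 CPM in the 2 cultured libraries alone and so was among the 43 genes only because it was high there, as *Col6a4* was only through its MaSC/basal levels and *Col26a1* through its ML levels. Past the limit in the mammosphere library alone were *Col5a3*, at 354 CPM and a difference of 4.92, *Col6a3* (3.56), *Col15a1* (2.89), *Col10a1* and *Col28a1*, the last at the limit (2.00). Past it in the Comma Dβ library alone were *Col3a1* (2.67), *Col6a1* (2.66), *Col6a2* (2.19) and *Col22a1* (26 reads against 2 to 7). Of the 8 fibroblast markers, 5 lay above and 3 below the MaSC/basal range in the mammosphere library. *Lum* was at 48.4 CPM and *Dpt* at 43.0 CPM there, against MaSC/basal means of 14.1 and 14.7 CPM, and *Mfap5* and *Fap* were at 37.3 and 15.5 CPM against 3.34 and 1.52 CPM, whereas *Dcn*, *Clec3b* and *Pi16* were lower (98.3, 1.53 and 2.85 CPM). In the Comma Dβ library 1 of the 8, *Pdgfra*, lay above the MaSC/basal range and 7 below it. *Pdgfra* was at 124 CPM there and at 59.1 CPM in the mammosphere library, against 8.99 to 12.0 CPM in MaSC/basal libraries, and the pericyte marker *Pdgfrb* at 340 and 150 CPM against 16.1 to 27.4 CPM. The part of other cell types in the collagen levels of the cultured libraries was not tested.

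**Figure D5:**
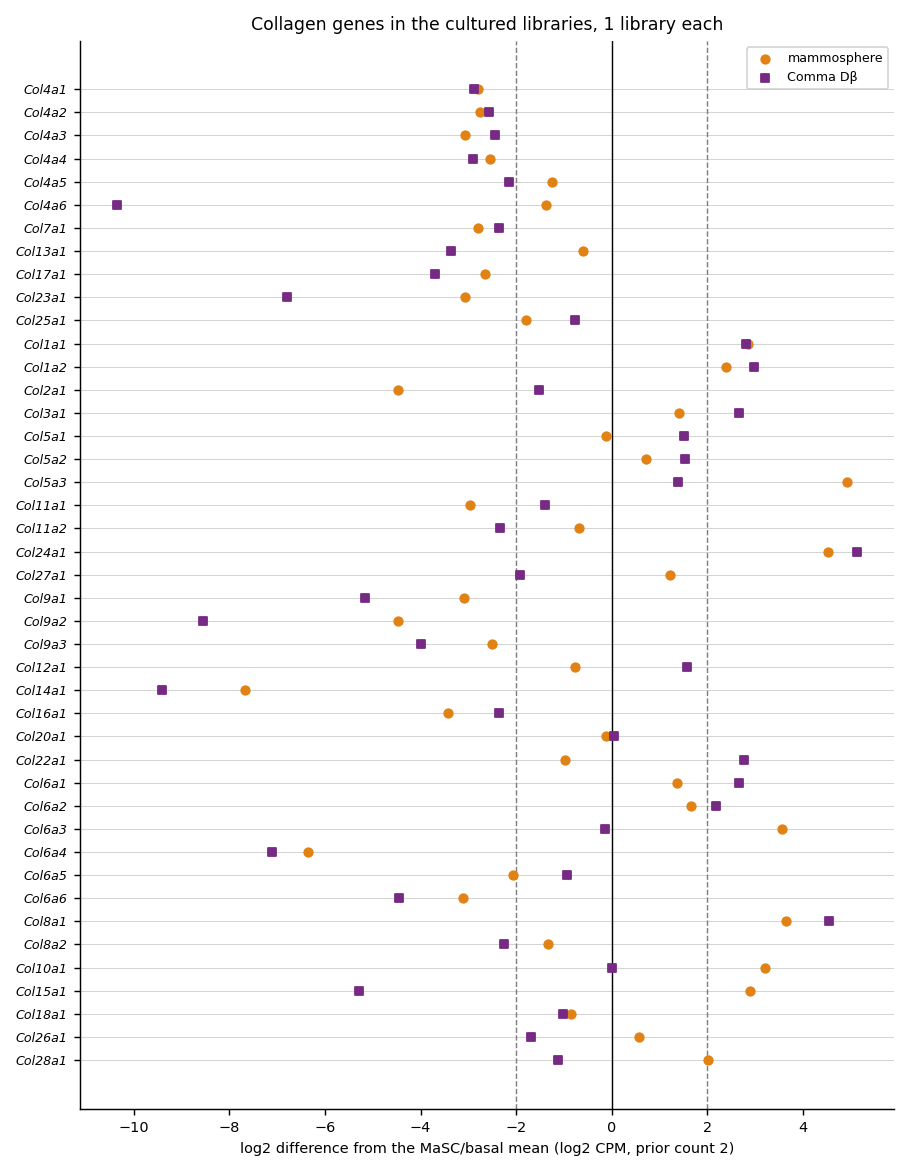
Log2 difference of 43 collagen genes from the mean of the 3 MaSC/basal libraries in the mammosphere (circles) and Comma Dβ library (squares), 1 library each. Dashed lines mark a difference of 2. The type IV genes, *Col7a1*, *Col17a1* and the type IX genes lie to the left in both libraries, and *Col4a6* (-10.35 in Comma Dβ cells) is the farthest point.

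The genes that were lower in both cultured libraries were *Col4a1*, *Col4a2*, *Col4a3*, *Col4a4*, *Col6a4*, *Col6a6*, *Col7a1*, *Col9a1*, *Col9a2*, *Col9a3*, *Col14a1*, *Col16a1*, *Col17a1* and *Col23a1*. *Col4a1* and *Col4a2* were lower by nearly the same amount in each (log2 differences of -2.81 and -2.76 in the mammosphere and -2.88 and -2.56 in the Comma Dβ library). They nevertheless stayed above all 6 LP and ML libraries, as did *Col7a1* (-2.79 and -2.37), *Col17a1* (-2.65 and -3.70) and *Col18a1* (-0.85 and -1.02, not past the limit). *Col14a1* lay farthest below MaSC/basal cells of the genes lower in both, with differences of -7.68 and -9.40. *Col9a2* was lower by -4.48 and -8.55, *Col9a3* by -2.51 and -3.98 and *Col9a1* by -3.09 and -5.17. *Col4a5* was past the limit in the Comma Dβ library alone (-2.14; -1.24 in the mammosphere). *Col2a1* (-4.48), *Col6a5* (-2.07) and *Col11a1* (-2.97) were past it in the mammosphere library alone, and *Col4a6*, *Col8a2* (-2.25), *Col11a2* (-2.34), *Col13a1* (1 read) and *Col15a1* (-5.28) in the Comma Dβ library alone. *Col15a1* thus had opposite directions in the 2 libraries, as had no other gene past the limit in both.

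Genes that act on collagens were examined as a list of 66, of which 63 were tested. The list comprises enzymes that hydroxylate chains and their partners, chaperones, secretion factors, propeptide proteinases, cross-linking enzymes, binding partners, and receptors together with hemidesmosome genes. Of the 63, 42 were called higher and 4 lower in MaSC/basal than in LP cells (66.7% and 6.35% of the list, against 29.4% and 28.0% of all genes), and 40 and 6 in the comparison with ML cells (63.5% and 9.52%, against 28.9% and 29.7%). Between LP and ML cells 13 were higher and 10 lower (20.6% and 15.9%), near the 14.3% and 17.5% of all genes. The counts by role that follow are to be read against the same shares of all genes. All 8 genes listed as chaperones and glycosyltransferases, among them the ion channel gene *Tmem38b*, were called higher in MaSC/basal than in LP and in ML cells. *Serpinh1*, the collagen chaperone HSP47, had a mean level of 705 CPM in MaSC/basal cells, 86.7 in LP cells and 53.1 in ML cells (log2 fold changes of 3.02 ± 0.20 and 3.73 ± 0.21). *Colgalt2*, which adds galactose to hydroxylysine, had the largest fold changes of this group (4.98 ± 0.18 and 4.74 ± 0.17).

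Of the 13 genes of hydroxylases and their partners, such as *Crtap* and *Ppib*, 9 were called higher than in LP and 8 higher and 1 lower than in ML cells. *Plod2*, a lysyl hydroxylase that sets the type of cross-link, had the largest fold changes (3.72 ± 0.36 and 4.99 ± 0.39). The prolyl 3-hydroxylase *P3h1* and its partner *Crtap* rose in parallel, at mean levels of 69.1 and 66.0 CPM in MaSC/basal cells against 4.03 to 8.82 CPM in luminal cells. *P4ha1* and *P4ha2*, alternative catalytic chains of prolyl 4-hydroxylase, differed: *P4ha1* was higher in MaSC/basal than in ML cells (2.50 ± 0.21), and *P4ha2* was lower (-1.76 ± 0.32). Their common partner *P4hb* was at 555, 557 and 568 CPM in the 3 populations.

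Among the 8 tested proteinases and enhancers of propeptide removal, *Adamts2*, the main procollagen N-proteinase, was higher in MaSC/basal cells (2.58 ± 0.46 and 3.81 ± 0.49), and its relative *Adamts3* was lower (-2.61 ± 0.24 and -2.06 ± 0.23). Of the 6 cross-linking enzymes, *Loxl3* and *Pxdn*, the peroxidase that forms sulfilimine bonds in type IV collagen, were higher in MaSC/basal cells in both comparisons. *Loxl3* had log2 fold changes of 4.50 ± 0.17 and 5.41 ± 0.17 and *Pxdn* of 2.51 ± 0.15 and 2.46 ± 0.15. *Loxl4* was lower than in ML cells (-1.90 ± 0.36). *Lox* itself was at mean levels of 4.84, 6.32 and 2.30 CPM and not called, but at 200 CPM in the mammosphere and 435 CPM in the Comma Dβ library, log2 differences of 5.44 and 6.57 from MaSC/basal cells.

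Of the 10 partners of fibrils and basement membranes, 8 were called higher and none lower in MaSC/basal than in LP and than in ML cells. *Fmod*, the fibril-binding proteoglycan fibromodulin, had the largest fold changes (6.54 ± 0.70 and 7.98 ± 0.76), and was low in the cultured libraries (0.607 and 1.05 CPM against a mean of 170 CPM). The list of receptors also held the hemidesmosome genes *Dst*, *Plec*, *Itga6* and *Itgb4*. Among its 11 tested genes, 6 were called higher and 1 lower in each comparison. *Itga1*, the integrin chain that prefers type IV collagen, had the largest fold changes (3.69 ± 0.36 and 4.53 ± 0.37), whereas *Itga2*, the chain that prefers type I collagen, was lower in MaSC/basal than in LP cells (-0.92 ± 0.31) and *Plec*, which encodes the hemidesmosomal linker plectin, lower than in ML cells (-1.36 ± 0.19). Of the 7 tested secretion factors, 4 were called higher than in LP and 3 than in ML cells, with the same 2 lower in each, for the lower genes a share near that of all genes. *Sec24d*, a coat protein needed for collagen export, had the largest rise (1.23 ± 0.25 and 1.61 ± 0.25). The 2 lower genes were *Klhl12*, a ubiquitin ligase adaptor that enlarges export coats (-0.34 ± 0.12 and -0.30 ± 0.12), and *Mia2*, whose symbol has been shared by different gene models and whose values are not given.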

How the data were processed

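RNA-seq of 11 libraries was used. From single-end reads that were mapped to mm10 (GRCm38) by Rsubread and summarised per Entrez gene by featureCounts, the authors deposited raw counts and a length for each of 27179 genes, in a table per library, neither normalized nor filtered. How reads shared by paralogs were treated is not given in the sources used here. The submitters' processing notes name CASAVA 1.8.0, featureCounts, edgeR 3.6.2 and limma 3.20.5. Symbols were taken from RefSeq for 25275 genes and from GENCODE for 18, and 1886 genes have none. *Col21a1* was not analysed here.

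The test was that of edgeR 4.0.16 (R 4.3.3), a quasi-likelihood fit over all 11 libraries with TMM scaling and 5 means, 1 for every sample type. It covered the 15422 genes that exceeded 0.5 CPM in 3 libraries or more. SE is the log2 fold change divided by the square root of F. All CPM levels printed are TMM-scaled, whereas the filters on low counts used CPM without TMM scaling. CPM per kb uses the deposited gene length. The functions were tested on simulated data. The members, structural classes, handling lists and tests were chosen with earlier results of these data known. Values per library were given for the 3 highest members of each class per kb, members called between LP and ML cells and members past the limit in both cultured libraries. Of the handling genes, those with the largest fold change of each role and direction were named, and *Serpinh1*, *P3h1*, *Crtap*, *P4ha1*, *P4hb*, *Adamts2*, *Pxdn*, *Lox* and *Klhl12* were added after their values were seen.

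Samples were grouped by the labels, and replicates were numbered in accession order. The labels give 3 library batches, which pair LP and ML replicates of the same number, MaSC/basal replicate 1 with replicate 1 of both, and MaSC/basal replicates 2 and 3 with replicate 2 of both. The mammosphere library is in batch 1, with MaSC/basal replicate 1. The Comma Dβ library is in batch 3, which holds LP and ML replicate 3 and no MaSC/basal library. Deviations from the group means correlated by 0.320, 0.313 and 0.526 between LP and ML libraries of a batch and by -0.118 to 0.289 between MaSC/basal libraries and those of their batch. Library batch as a replicate block was one of the alternatives, beside DESeq2 size factors, no TMM scaling, other filters, limma voom (3.58.1), the DESeq2 Wald test (1.42.0), the 9 sorted libraries alone, another prior count, a stricter call rule and leaving out each sorted library in turn. At 0.5 CPM the shallowest library holds 9.37 reads, and floors of 3 reads describe counting error alone, because no molecular identifiers tell copies of a molecule apart.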

Additional observations from a re-analysis of the deposited data

How the results depend on the processing

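The counts of collagen genes called in MaSC/basal against LP and ML cells stayed within 1.5 times under other scalings, filters and tests (24 or 25 higher and 6 to 9 lower than in LP cells, 25 to 28 higher and 3 or 4 lower than in ML cells). With library batch as replicate block, the counts were 24 and 7, 25 and 4, and 15 and 3 in the comparisons MaSC/basal against LP, MaSC/basal against ML and LP against ML. Beside the genes named with it in the report, the block changed the call of *Col4a2* between LP and ML cells (1.12, adjusted p = 0.0457; 1.24 ± 0.43, adjusted p = 0.0503 without it) and of no other collagen gene. The stricter rule (FDR under 0.001 and log2 fold change over 2) left 1 and 2 collagen genes lower in MaSC/basal than in LP and ML cells, 1 higher and 0 lower in LP than in ML cells, and of the handling genes 19 higher and 1 lower, 19 higher and 2 lower, and 0 and 0, by its own construction. *Col6a2* was called higher in MaSC/basal than in LP cells without TMM scaling, without a filter, with voom and with DESeq2 (adjusted p of 0.0169 to 0.0442). Between LP and ML cells the call of *Col7a1* was lost with voom (adjusted p = 0.0624). Those of *Col18a1* and *Col28a1* were lost without TMM scaling (adjusted p = 0.0647 and 0.0548). Beside type IV genes, calls were gained for *Col5a1* with voom (adjusted p = 0.0406) and for *Col12a1* and *Col27a1* with the DESeq2 test (adjusted p = 0.0413 and 0.0420).

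Leaving out 1 library at a time gave 9 to 19 collagen and 7 to 15 handling genes called higher in LP than in ML cells, 2 to 4 collagen and 7 to 10 handling genes called lower, and 1 to 5 handling genes called lower in MaSC/basal than in LP cells, the last count being lowest without MaSC/basal replicate 1. The 7 handling genes called higher in LP cells were counted without ML replicate 3. With LP replicate 2 and ML replicate 1 both left out, 8 collagen genes were higher and 1 lower and 4 handling genes lower in LP than in ML cells, and 1 handling gene was lower in MaSC/basal than in LP cells. The cause was not tested, and fewer libraries entered these fits.

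Signs changed only for values without a call. Against LP cells *Col1a1*, *Col1a2* and *Col3a1* had log2 fold changes of 0.20, 0.16 and 0.046 with voom, and *Col1a1* and *Col1a2* of 0.052 and 0.036 without TMM scaling. Over the fits with libraries left out they ranged from -0.50 to 0.72, from -0.50 to 0.64 and from -0.75 to 0.51, *Col5a3* from -0.67 to 0.55 and *Col26a1* from -0.086 to 1.04. Between LP and ML cells *Col20a1* was at -0.15 without TMM scaling and *Col17a1* at 0.074 with voom, and over the fits with libraries left out *Col20a1* ranged from -0.13 to 0.11, *Col17a1* from -1.49 to 0.66 and *Col6a4* from -0.67 to 2.05. Over all collagen genes and alternatives, 2044 fold changes of the sorted cells kept direction and side of the threshold, 54 gained and 37 lost a call and 22 changed sign. Counts past the limit in the cultured libraries moved by at most 2. Values under 0.160 CPM rest on 3 reads or fewer in the shallowest library.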
